A study of Arabidopsis thaliana with 6 samples.

Results

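The GILT family encodes plant relatives of gamma interferon responsive lysosomal thiol reductase. In the annotation used here, 3 of its 6 listed genes had an ATH1 probe set of their own. These were *GILT* (AT4G12960) and *AT4G12890*, both on chromosome 4, and *AT1G07080* on chromosome 1. They are 3 of 13356 genes that the annotation pairs with a probe set of 1 gene. *AT4G12870* and *AT4G12900*, the other members of the chromosome 4 cluster, and *OSH1* (AT5G01580) on chromosome 5 were not analysed here. The family was chosen with the genotype difference of *GILT* and *AT4G12890* already known from these arrays, so the differences of its members are a description and carry no test.

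In mammals GILT is a soluble enzyme of the lysosome that reduces disulfide bonds at acidic pH and so helps to unfold proteins that are taken up for breakdown. Its active site holds a pair of cysteines, as in thioredoxin. Plants have neither interferon nor antigen presentation, and the family name rests on sequence similarity to the animal protein. The symbol *OSH1* stands for OAS HIGH ACCUMULATION, where OAS is O-acetylserine, the precursor of cysteine.

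RNA came from inflorescences of 5-week-old *Arabidopsis* plants that had been freed of flowers beyond stage 13. The *bp er* parent line lacks functional *BREVIPEDICELLUS*, a KNOX homeobox gene, through the *bp-2* allele, and carries a mutant *ERECTA* receptor kinase gene. The *bp er fil-10* suppressor line carries the same *bp* and *er* mutations and, in addition, *fil-10*, a point mutation in the YABBY gene *FILAMENTOUS FLOWER* that was recovered after EMS mutagenesis, is described as a weak allele and was backcrossed to the parent. Both genotypes therefore share the *bp* and *er* lesions, no wild-type or single mutant array enters the comparison, and the suppressor is a single mutant line. Each genotype was measured on 3 arrays labelled as biological replicates 1 to 3.

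The deposited MAS signals summarise how brightly a probe set hybridized, are linear rather than logarithmic, and were brought to a target of 500 on every array by the authors. The median signal per array lay between 193 and 215. Of 22746 probe sets that are not controls, 14456 reached 100 on 3 or more arrays and were tested, and all 3 GILT family probe sets were among them. No probe set is named here for *BP*, *ER* or *FIL*, so the genotypes could not be checked on the arrays. Of 10 floral organ identity genes only *UFO* has a named probe set, with signals of 5.8 to 53.3, so the tissue label was hardly checked either. Affinity differs between probe sets, so the signal of one gene is not set against that of another, and the number of arrays limits the precision.

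*GILT*, which the annotation names as the plant gamma-interferon-responsive lysosomal thiol reductase, gave a strong signal in both genotypes and a much lower one in *bp er fil-10*. The signals were 18411, 16762 and 15593.5 on the *bp er* arrays of replicates 1, 2 and 3. The suppressor arrays gave 5246, 7375 and 4571.5 in the same order. Every suppressor array lay below every parent array, and the lowest parent array was still 2.11 times the highest suppressor array. The parent had a mean signal of 16922 ± 1416 (SD, n = 3). That of the suppressor was 5731 ± 1463 (SD, n = 3), or 33.9% of the parent's mean. On the log2 scale the difference, *bp er fil-10* minus *bp er* here and throughout, was −1.59 (SE 0.18).

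*AT4G12890*, the other cluster gene measured, also had a lower signal in the suppressor, and by a similar factor. Its signals were 2431, 2503 and 1716 in the parent, against 894, 696 and 779 in the suppressor. The genotypes again did not overlap, although the parent's replicate 3 array lay well below its replicates 1 and 2. The parent's mean was 2216.5 ± 435 (SD, n = 3) and the suppressor's 790 ± 99.5 (SD, n = 3), which is 35.6% of it and a log2 difference of −1.48 (SE 0.19). The lowest parent array was 1.92 times the highest suppressor array.

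*AT1G07080*, the family member outside the cluster, had nearly the same signal in both genotypes. The parent arrays gave 1343.5, 1364 and 1503, and the suppressor arrays gave 1486, 1403 and 1309.8. The genotypes overlapped, with the highest signal in the parent and the lowest in the suppressor. The parent's mean was 1404 ± 86.9 and the suppressor's 1399.7 ± 88.2 (SD, n = 3 for each), and the log2 difference was −0.0041 (SE 0.14) with a 95% interval of −0.32 to 0.31.

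**Figure D1:**
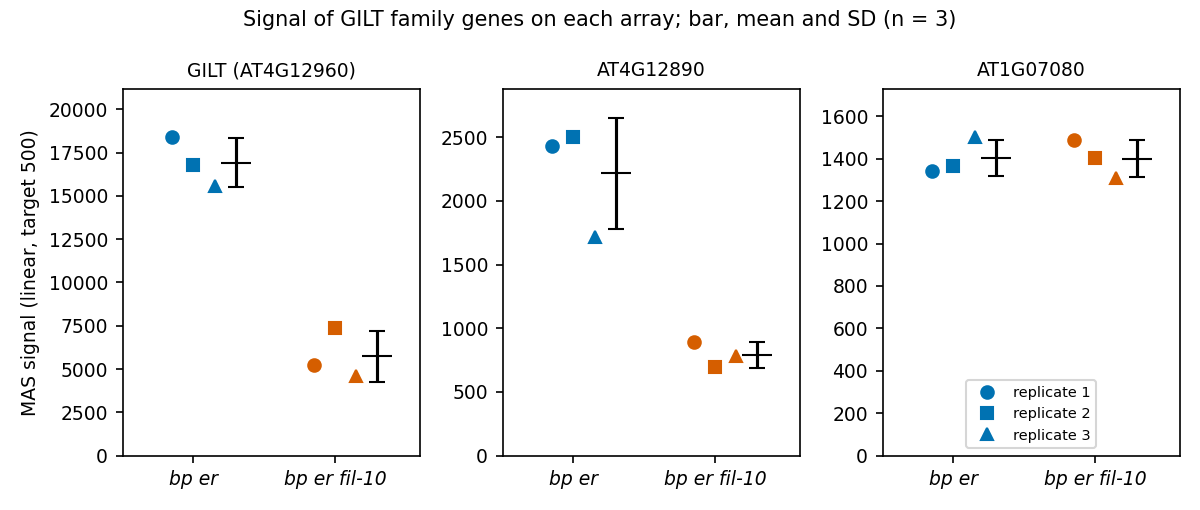
MAS signal (linear scale) of *GILT*, *AT4G12890* and *AT1G07080* on each of the 6 arrays, by genotype, with the mean and SD of 3 arrays beside the points; each panel has its own axis from 0. For *GILT* and *AT4G12890* all *bp er fil-10* arrays lie below all *bp er* arrays, and for *AT1G07080* the means are 1404 and 1399.7.

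The genotypes did not overlap, with *bp er fil-10* lower, in 2 of the 3 members, where 9.13% of all probe sets tested showed this. Limma called 0 of the 3 lower at an adjusted p under 0.05 (0.00692% of all probe sets, which is 1 probe set) and 2 at an unadjusted p under 0.05 (7.06% of all). With the replicate number as a block it called 2 of the 3 lower, against 2.13% of all probe sets. It also called 2 without the suppressor's replicate 3 array, where 82 of all 14456 probe sets were called lower. Since the members were picked on this contrast, nothing is read from these counts. The median log2 difference of the 2 cluster genes was −1.53, beside 0.057 over all probe sets tested and a lowest 5% that began at −0.63. Among the 12537 probe sets with at least 100 on all 6 arrays, 9 had a more negative difference than *GILT* and 15 a more negative one than *AT4G12890*, whereas 5457 lay below *AT1G07080*.

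The brightest probe sets tended to be lower in the suppressor. In the 239 with a mean log2 signal of at least 13, among them *GILT* at 13.2, the median difference was −0.28, and 1 of them lay below *GILT*. After quantile normalization this median was −0.02 and the difference of *GILT* was −1.35. The difference of *AT4G12890* was −1.49 after the same step. The RNA is that of whole inflorescences, in which fewer cells of a type and less RNA per cell cannot be told apart.

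**Figure D2:**
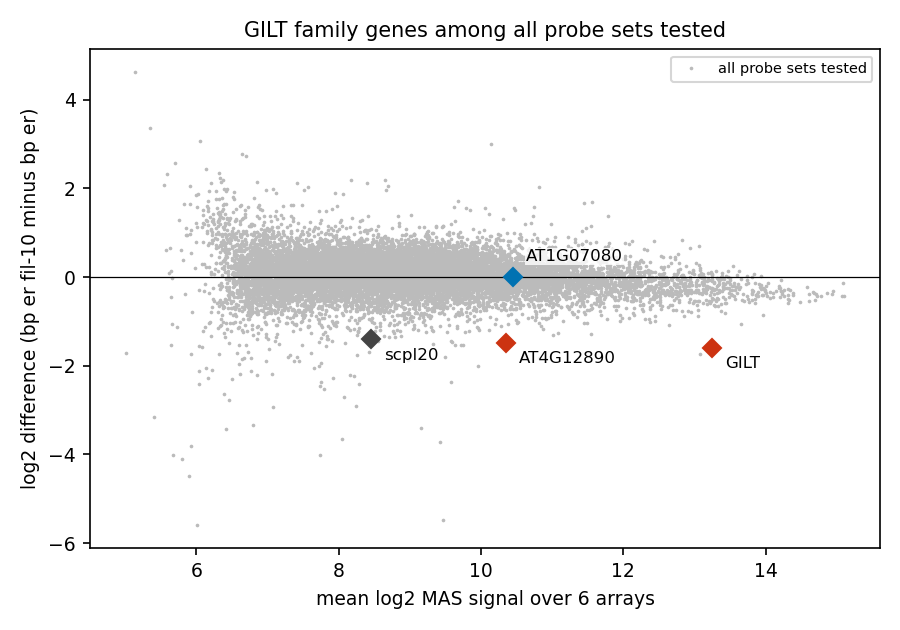
Log2 difference (*bp er fil-10* minus *bp er*) against mean log2 MAS signal over 6 arrays for the 14456 probe sets tested (grey), with the 3 GILT family genes and the neighbouring gene *scpl20* marked. *GILT* and *AT4G12890* lie at −1.59 and −1.48, at the lower edge of probe sets of like signal, and *AT1G07080* lies at 0.

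The difference between genotypes was of similar size in both cluster genes, but 3 arrays per genotype are too few to tell whether they vary together. Within each array the log2 ratio of the *GILT* to the *AT4G12890* signal was taken, of which only the change between arrays can be read, since its size depends on the affinity of the probe sets. It was 2.92, 2.74 and 3.18 in the parent, and 2.55, 3.41 and 2.55 in the suppressor. The ratio averaged 2.95 ± 0.22 in the parent and 2.84 ± 0.49 in the suppressor (SD, n = 3 for each), a shift of −0.11 that is smaller than either SD. The suppressor's replicate 2 array had the highest *GILT* signal of its genotype and the lowest *AT4G12890* signal. In the parent both genes were lowest on replicate 3. Against *AT1G07080* the same kind of within-array log2 ratio shifted by −1.58 for *GILT* and by −1.47 for *AT4G12890*, each with no overlap between genotypes. As *AT1G07080* hardly differed between genotypes, these shifts restate the differences given above and add no separate evidence.

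Arrays of like replicate number gave differences of −1.81, −1.18 and −1.77 for *GILT* in replicates 1, 2 and 3. For *AT4G12890* they were −1.44, −1.85 and −1.14, and for *AT1G07080* 0.15, 0.041 and −0.20. Since neither cluster gene overlapped between genotypes, both had to be lower in every pair, however the arrays were paired. *GILT* was least so in the pair in which *AT4G12890* was most so. The spread between arrays also differed among members. The coefficient of variation of *AT1G07080* was 6.19% in the parent and 6.30% in the suppressor, that of *GILT* 8.36% and 25.5%, and that of *AT4G12890* 19.6% and 12.6%, beside medians of 16.6% and 15.3% over all probe sets tested.

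The replicate 3 arrays differ from replicates 1 and 2 for many transcripts in both genotypes, and the members were examined for this. *AT4G12890* was lower on replicate 3 than on the mean of replicates 1 and 2 by −0.52 on the log2 scale in *bp er*, and by −0.017 in *bp er fil-10*. *GILT* differed by −0.17 and −0.44 in the same order, and *AT1G07080* by 0.15 and −0.14. Without the parent's replicate 3 array the genotype difference was −1.65 for *AT4G12890* and −1.65 for *GILT*. Without the suppressor's replicate 3 array it was −1.47 and −1.44.

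On chromosome 4 the cluster genes stand among genes of other families, and the neighbours allow a look at whether lower signals extend along the region. In TAIR10.1, 26 protein-coding genes run from AT4G12800 to AT4G13040, of which 4 are GILT family members and 22 are neighbours. *AT4G12870*, *AT4G12890* and *AT4G12900* lie close together, separated only by *ENODL19*, and 6 genes, *AT4G12900* among them, separate *AT4G12890* from *GILT*. Of the neighbours 11 had a named probe set and 6 were tested.

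*scpl20* (AT4G12910), which encodes a serine carboxypeptidase-like protein and whose annotated span overlaps the end of *AT4G12900*, had the profile nearest to the cluster genes in size. Its signals were 644.5, 525 and 552 in the parent, against 193, 228 and 233 in the suppressor, without overlap. The parent's mean was 574 ± 62.5 and the suppressor's 218 ± 21.9 (SD, n = 3 for each), a log2 difference of −1.40 (SE 0.17; limma adjusted p = 0.0526). With the replicate block the adjusted p was 0.0115, and without the suppressor's replicate 3 array it was 0.0443, so the call for *scpl20* depends on the fit. The study lists this gene among its down-regulated genes, so its direction is not independent of these arrays.

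*AT4G12930*, a gene of unknown function that lies between *scpl20* and *GILT*, had the opposite direction. Its signals were 68.0, 106 and 24.2 in the parent, against 191.5, 172 and 159 in the suppressor, again without overlap, and it met the minimum through the suppressor arrays. The log2 difference was 1.64 (SE 0.56), and it passed neither fit (limma adjusted p = 0.214, and 0.111 with the block). With signals under 100 raised to 100 the log2 difference was 0.77 (limma adjusted p = 0.129). It too is named in the study's lists, as up-regulated.

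*STOMAGEN* (AT4G12970), which encodes a secreted peptide that promotes stomatal development, is the next gene after *GILT*. Its signals were 756, 933 and 820.5 in the parent, against 742, 750.3 and 719 in the suppressor. The suppressor arrays all lay below the parent arrays, but by little, and the log2 difference was −0.18 (SE 0.15; limma adjusted p = 0.568). Further along, *AT4G12980*, *AT4G13000* and *AT4G13010* had log2 differences of −0.23 (SE 0.20), −0.025 (SE 0.39) and −0.66 (SE 0.40), with overlapping arrays and adjusted p of 0.591, 0.979 and 0.431 from limma.

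Of the 6 neighbours tested, limma called 0 lower (0.00692% of all probe sets) and 0 higher (0%). At an unadjusted p under 0.05, 1 was lower (7.06% of all probe sets) and 1 higher (9.78%). With the block 1 was called lower (2.13%) and 0 higher (1.6%). The genotypes did not overlap in 2 neighbours with the suppressor lower (9.13%) and in 1 with it higher (14.2%). The median log2 difference of the 6 was −0.20. The other 5 neighbours measured, *AT4G12830*, *AT4G12840*, *UND*, *AT4G12990* and *AT4G13030*, stayed under the minimum, with signals of 4.5 to 185.8.

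**Figure D3:**
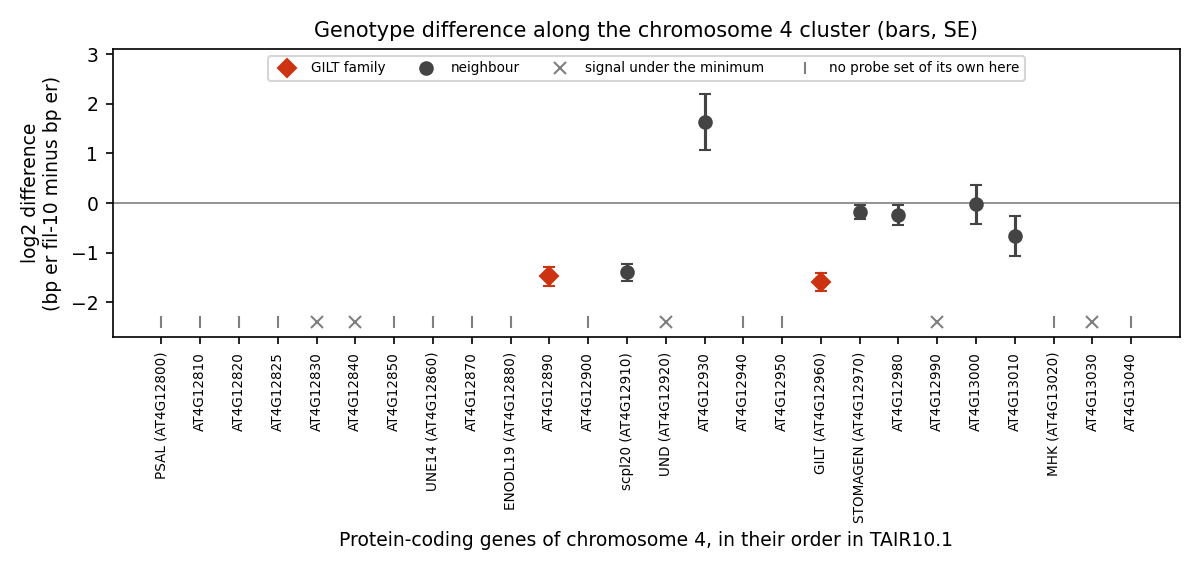
Log2 difference between genotypes (bars, SE of the limma fit) for the protein-coding genes from AT4G12800 to AT4G13040 in chromosomal order; crosses mark genes under the minimum signal and ticks mark genes with no probe set of their own here, at a height with no meaning. *AT4G12890*, *scpl20* and *GILT* lie at −1.48, −1.40 and −1.59, *AT4G12930* between them is above 0, and *STOMAGEN* next to *GILT* is at −0.18.

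Few genes of related biochemistry could be read. Of 25 genes for thiol-disulfide exchange (protein disulfide isomerases, their oxidases, h-type thioredoxins and thioredoxin reductases) only *PDIL5-1*, a small protein disulfide isomerase, was named and tested. Its signals were 329.7, 459.7 and 351.9 in the parent, against 420.0, 433.8 and 475.2 in the suppressor, with overlap and a log2 difference of 0.23 (SE 0.18; limma adjusted p = 0.536). Of 11 genes listed as vacuolar cysteine proteases 6 were tested, with a median difference of −0.10. Limma called 0 of the 6 in either direction (1 lower and 0 higher at an unadjusted p under 0.05, against 7.06% and 9.78% of all probe sets) and, with the block, 1 lower and 0 higher (2.13% and 1.6% of all). That gene was *DELTA-VPE*, a vacuolar processing enzyme gene, with a log2 difference of −1.88 (SE 0.27; limma adjusted p = 0.0753, and 0.00966 with the block), which also passed without the suppressor's replicate 1 or replicate 3 array. *BETA-VPE*, *AT1G02300* and *AT4G01610* differed by −0.48 (SE 0.34), 0.45 (SE 0.37) and −0.17 (SE 0.20) and passed neither fit.

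A few markers of cell types in the inflorescence could be set beside these values. Of 6 genes of late stamens, petals and nectaries, the nectary sugar transporter gene *SWEET9* and the terpene synthase gene *AT3G25810* were measured. *SWEET9* had signals of 1061, 842 and 2711 in the parent, against 646, 369 and 777 in the suppressor, and *AT3G25810* had 305, 318 and 448 in the parent, against 94.0, 164 and 136 in the suppressor. Neither gene overlapped between genotypes, with the suppressor lower, as in 9.13% of all probe sets tested. The parent's replicate 3 array stood far above the others for *SWEET9*. Both fell by limma with the block (adjusted p = 0.0217 and 0.0223), where 2.13% of all probe sets were called lower. Neither passed limma's test when the block was left out (adjusted p = 0.225 and 0.119). Without the parent's replicate 3 array, a setting added after the values were seen, the log2 difference of *SWEET9* went from −1.24 to −0.73 and its parent mean from 1538 to 951. The summed signal of these genes, carried mostly by the *SWEET9* probe set, was 1160.0 to 3159 in the parent, against 532 to 913 in the suppressor. Affinity enters such a sum, so it describes these probe sets and not the amount of RNA. Of 9 tapetum genes *AMS* and *AT5G07230* were measured, and neither passed either fit. *AMS* overlapped between genotypes, with means of 126 in the parent and 124 in the suppressor and a log2 difference of −0.041 (SE 0.30). *AT5G07230* had means of 5028 and 7002 without overlap, with the suppressor higher and a log2 difference of 0.47 (SE 0.15). Of all probe sets tested, 14.2% were without overlap and higher in the suppressor. The summed tapetum signal was 4864 to 5699 in the parent, against 6389 to 8286 in the suppressor. Nearly all of it came from the *AT5G07230* probe set, and the same limit holds. None of these 4 markers was at 0 on any array, and the late pollen and leaf markers have no named probe set here. The part of these cell types in the values of *GILT* and *AT4G12890* was not tested.

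The genes whose log2 signal most resembled that of *GILT* over the 6 arrays were found among 7834 other named probe sets by Pearson's r, given here as a description, since the arrays share the genotype split and any gene that differs between the lines correlates. They were *AT3G17380* (r = 0.999), *AT3G29180* (0.996), *AT5G42050* (0.990), *AT5G55040* (0.990) and *AT4G36180* (0.989). Their shape was alike but their differences were far smaller than that of *GILT*. The log2 difference was −0.63 (SE 0.25) for *AT3G17380*, −0.28 (SE 0.13) for *AT3G29180*, −0.66 (SE 0.16) for *AT5G42050*, −0.17 (SE 0.14) for *AT5G55040* and −0.25 (SE 0.13) for *AT4G36180*, and none passed limma's test. *AT4G12890* correlated with *GILT* at 0.923 over the 6 arrays, rank 77, and *AT1G07080* at 0.034.

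With the genotype means taken out, *AT4G12890* and *GILT* correlated at −0.10 and *AT1G07080* and *GILT* at 0.027, each over 6 arrays. The closest genes on this measure were *AT2G35450* (r = 0.990), *AT3G17380* (0.990), *AT1G10590* (0.989), *AT4G15750* (0.989) and *AT5G47350* (0.987). In *bp er fil-10* each of them was highest on the replicate 2 array, as *GILT* was. *AT4G15750* had signals of 7424, 5760 and 2429.5 in the parent, against 68.2, 1292 and 13.5 in the suppressor. *AT5G47350* had 3912, 2856 and 1393 in the parent, against 113, 824 and 73.7 in the suppressor. Both genes spanned a much wider range between arrays of 1 genotype than *GILT* did. Neither passed limma's test without the block (adjusted p = 0.144 and 0.124), and both did with it (0.0134 and 0.00966). With the block 2.13% of all probe sets were called lower.

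**Figure D4:**
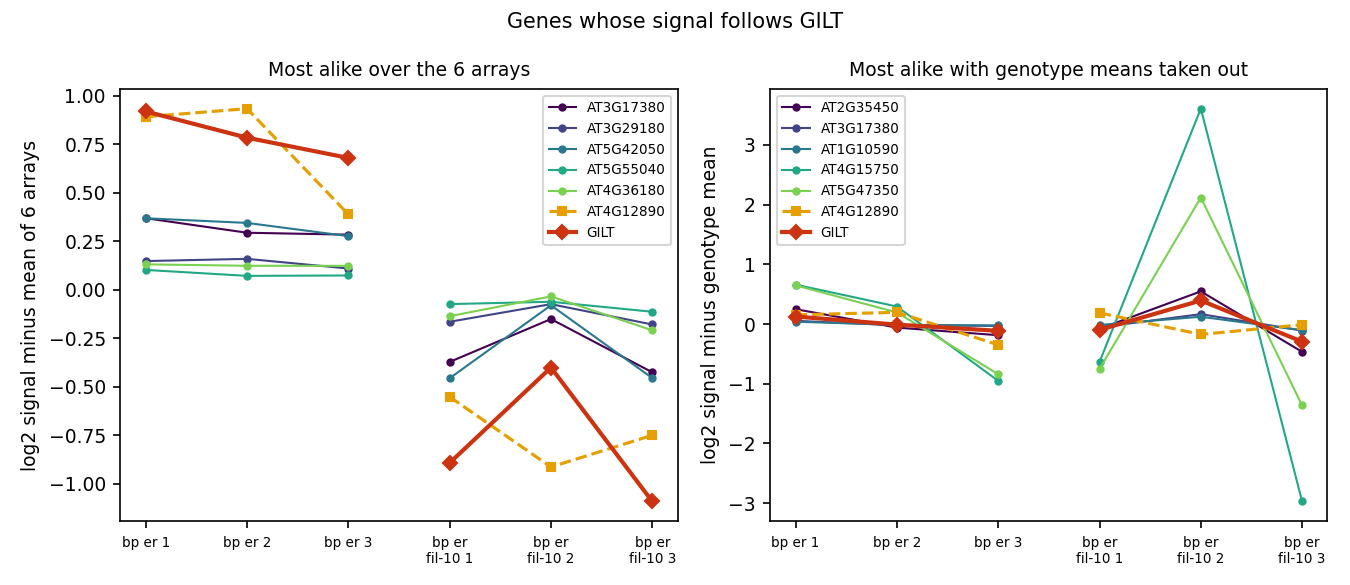
Log2 MAS signal on each array for *GILT*, *AT4G12890* and the 5 named genes most like *GILT*, relative to the mean of 6 arrays (left) and to the mean of each genotype (right); lines join arrays of 1 genotype for legibility only. On the right *GILT* and its 5 likenesses are highest on replicate 2 of *bp er fil-10*. That array has the lowest *AT4G12890* signal of its genotype.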

How the data were processed

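Affymetrix ATH1 arrays were scanned and, per the labels and methods, GCOS was used by the authors (version not given in the sources used here) to obtain MAS signals, each array being scaled linearly to a target of 500. The deposited intensity is linear, and the detection calls were not used here. Signals under 0.1 were raised to 0.1 and converted to log2. Probe sets reaching 100 on 3 or more of 6 arrays were fitted with limma 3.58.1 (R 4.3.3; lmFit and eBayes with an intensity trend, genotype only), 2-sided, with Benjamini-Hochberg adjustment over all 14456. The call was an adjusted p under 0.05. The procedure was tested on simulated data. No test was stated in the methods. The p-values rest on the spread between arrays labelled as biological replicates.

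Same-numbered arrays deviated together from their genotype means (correlations 0.103, 0.221 and 0.380 over the probe sets tested, each above the 0.1 taken as the limit), so a second fit used the replicate number as a block. The first lies barely above it, and *bp er* replicates 1 and 2 correlated more with the other number (0.183 and 0.225).

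The annotation lists 14016 probe sets, 13513 of them with 1 gene and 503 with several, and genes were ordered by the TAIR10.1 table. Probe sets it does not list are unnamed here. No sequence of the members was analysed here, and cross-hybridization between family members was not tested. The named genes are every member measured, the neighbours from AT4G12800 to AT4G13040, the 5 genes most like *GILT* by each of 2 measures, and up to 4 of each list with the smallest p. The bright probe sets with a mean log2 signal of at least 13 were summarised after the values were seen. The members and lists were chosen with earlier results of these data known. Alternatives were quantile normalization, other floors and filters, no intensity trend, the log2 ratio of mean signals, the block, and leaving out each array. Python 3.11.15, pandas 2.3.3 and matplotlib 3.10.9 made the tables and plots.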

Additional observations from a re-analysis of the deposited data

How the results depend on the processing

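The log2 differences of *GILT*, *AT4G12890* and *AT1G07080* could be moved by quantile normalization, leaving out an array or the ratio of mean signals. Each of these moved them by less than the SD between arrays pooled over both genotypes (0.27, 0.25 and 0.09 on the log2 scale). Raising low signals could not move them, since every member signal lay above the floors used. The replicate block could not either, since each replicate number holds an array of each genotype. For *GILT*, quantile normalization (−1.35) and leaving out *bp er fil-10* replicate 2 (−1.79) or 3 (−1.44) moved the difference by more than the SD of 0.12 in *bp er* alone. With 1 array left out the differences of the members, in the order above, ranged from −1.79 to −1.44, from −1.65 to −1.38 and from −0.048 to 0.046. The cluster median ranged from −1.65 to −1.46. From the ratio of mean signals the differences of the members were −1.56, −1.49 and −0.0040.

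Counts of calls depended on the processing far more. Over all probe sets limma called 1 lower and 0 higher, against 308 and 232 with the replicate block and 17 and 1 with signals under 100 raised to 100. With 1 array left out the calls ranged from 1 to 82 lower and from 0 to 41 higher, the most without *bp er fil-10* replicate 3. In that setting, with the block and with signals raised to 100, *GILT* and *AT4G12890* were among the calls. Without *bp er* replicate 3 or *bp er fil-10* replicate 2, 1 of them was, where 10 and 7 of all probe sets were called. As the members were picked on this contrast, nothing is read from these calls. Among the neighbours 0 were called lower, 1 with the block and 0 to 1 with an array left out. That gene was *scpl20*, with an adjusted p of 0.0443 without *bp er fil-10* replicate 3 and 0.0453 with signals raised to 100, and of 0.0529 to 0.364 under the other alternatives without the block. Among the vacuolar proteases 0 were called lower, 1 with the block and 0 to 1 with an array left out, the 1 without *bp er fil-10* replicate 1 or 3. Quantile normalization changed no count, and no neighbour or list gene was called higher under any alternative run for them. The cause of these shifts was not tested.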
